A study of Mus musculus with 6 samples.

Results

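The genes described here are the transcription factor NRF2, its inhibitor KEAP1 and 8 core NRF2 target genes, measured in CD11c+ cells of mouse spleen that were hypomorphic for Atg16L1 or wild type. The members were Nfe2l2, Keap1, Slc7a11, Gclc, Gclm, Gsr, Txnrd1, Srxn1, Nqo1 and Prdx1, and every probe set that the platform annotation assigns to exactly 1 of them was taken. That gave 17 of 22625 probe sets, for 9 of the 10 genes and of 12393 genes in all. Prdx1 had no probe set of its own, because each of its probe sets also names Gm21399. Genes with several probe sets were Keap1, Gclc, Gsr, Txnrd1 and Srxn1.

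The study compared 3 arrays from Atg16L1 hypomorphic mice with 3 arrays from wild-type mice, and all mice were untreated, 8 weeks old and of the C57BL/6J background. Splenic cells carrying CD11c, the integrin used to select dendritic cells, were enriched with magnetic beads and hybridized to Affymetrix MOE430A arrays. A hypomorphic allele has reduced function, and the labels used here do not say how this one was made, nor whether every array stands for a separate animal. The p-values therefore describe only the spread among these 6 arrays, which may be technical. Values are on the log2 scale, 1 per probe set and array, and 3 arrays per group limit their precision.

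NRF2, encoded by Nfe2l2, is held in the cytoplasm and sent for degradation by KEAP1 until oxidants or electrophiles modify KEAP1. NRF2 then enters the nucleus, pairs with small MAF proteins and binds antioxidant response elements in genes for glutathione, thioredoxin and quinone metabolism. The pathway touches autophagy through p62, the autophagy receptor encoded by Sqstm1, which can bind KEAP1 in place of NRF2. NRF2 is regulated to a large part at the level of the protein, which these arrays do not measure.

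Atg16l1, which checks the labels, read 6.13, 5.84 and 6.11 on the hypomorph arrays, against 7.05, 7.11 and 7.04 on the wild-type arrays. The groups did not overlap, and the gene was 2.05-fold lower in the hypomorph (log2 change -1.04, SE 0.10, limma adjusted p = 0.0015). Arrays also differed in other ways that followed the genotype. The 24 poly-A spike-in probe sets, for bacterial transcripts added before labelling, averaged 7.69 ± 0.18 on hypomorph arrays and 9.48 ± 0.50 on wild-type arrays (SD, n = 3 each; two-sided exact permutation p = 0.1, the smallest that 3 against 3 arrays can give). The hybridization controls, added after labelling, were lower by the same test (difference -1.02, exact permutation p = 0.1), as were the 3 probe sets for small subunit ribosomal RNA (difference -0.67, exact permutation p = 0.1). The beta-actin 3' value minus its 5' value, a sign of RNA quality, was 0.69 to 0.77 on hypomorph arrays and 0.94 to 1.02 on wild-type arrays (exact permutation p = 0.1). The part of these differences in the results below was not tested. The poly-A signal was tried as a covariate, but its groups did not overlap, so that fit cannot tell it apart from genotype. When limma was given the mean signal of the poly-A spike-ins as a covariate, 0 of the 22625 probe sets passed (2129 had an unadjusted p below 0.05) and the median standard error was 2.77 times as large, so none of the calls reported here was made in that fit. The title of wild-type replicate 3 gives another array name than the other 5 titles, and wild-type replicate 1 differs from the rest in the prefix of its title. Whether these are typing errors is not known. Values without an array are given below for the members whose change it carried.

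Markers of splenic macrophages differed between the genotypes as well. Of 12 genes for red pulp and marginal macrophages, 11 rose and none fell with limma (also none at an unadjusted p under 0.05), Siglec1 being the member that did not pass. Their summed level, as log2 of the sum of linear values, was 15.05 to 15.13 on hypomorph arrays and 12.91 to 13.57 on wild-type arrays. Of the 9 measured dendritic cell markers 1 rose and 2 fell with limma (2 higher and 4 lower at an unadjusted p under 0.05). Xcr1 rose (log2 change 0.46, limma adjusted p = 0.0392), while Zbtb46 (log2 change -0.63, limma adjusted p = 0.0103) and Itgax fell. The summed level of these markers was 14.45 to 14.57 on hypomorph arrays and 14.46 to 14.57 on wild-type arrays. That sum is weighted to the brightest genes, H2-Ab1 and Cd74, with hypomorph means of 13.38 and 12.80. Itgax, which encodes CD11c, read 10.01, 9.87 and 9.96 on hypomorph arrays, against 10.45, 10.20 and 10.30 on wild-type arrays, so the marker used for selection was present throughout but lower in the hypomorph (limma adjusted p = 0.0352). Of the other marker lists, those of monocytes, plasmacytoid dendritic cells, NK cells and erythroid cells held no called gene among 3 measured each by limma (1 monocyte and 1 plasmacytoid gene were lower at an unadjusted p under 0.05). For T cells 1 of 6 rose, for neutrophils 2 of 5 rose, and for B cells 3 of 5 fell. The share called was 91.7% for macrophages, 33.3% for dendritic cells, 16.7% for T cells, 40.0% for neutrophils and 60.0% for B cells. Of all genes 18.0% passed by their brightest probe set, 9.63% higher and 8.32% lower, so the T cell share was near that of all genes. At an unadjusted p under 0.05, T cells had 1 gene higher and 0 lower, neutrophils 3 and 1, and B cells 0 and 3. The lower neutrophil gene was S100a9 (log2 change -0.59). In such bulk samples more cells of a type and more RNA per cell cannot be told apart, and the part of the macrophage difference in the results below was not tested.

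Within the pathway, 3 genes rose in the hypomorph: Gclm, the modifier subunit of the enzyme that starts glutathione synthesis, Gsr, which regenerates reduced glutathione, and Txnrd1, which regenerates reduced thioredoxin. Their brightest probe sets rose 1.87-fold, 1.70-fold and 1.82-fold. For Txnrd1 only that probe set passed, and the others changed by -0.21 and 0.14 on the log2 scale. The mean of its probe sets did not pass (log2 change 0.26, limma adjusted p = 0.0639). Nfe2l2 itself, Keap1, Gclc, Srxn1, Nqo1 and Slc7a11 did not pass the threshold, which was a Benjamini-Hochberg adjusted p under 0.05 over all 22625 probe sets with limma. By probe sets, 4 of 17 rose and 0 fell (5 and 0 at an unadjusted p under 0.05), where 17.5% of all probe sets passed, 9.76% higher and 7.73% lower. The median log2 change of the 17 was 0.13, beside -0.04 over all probe sets.

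**Figure D1:**
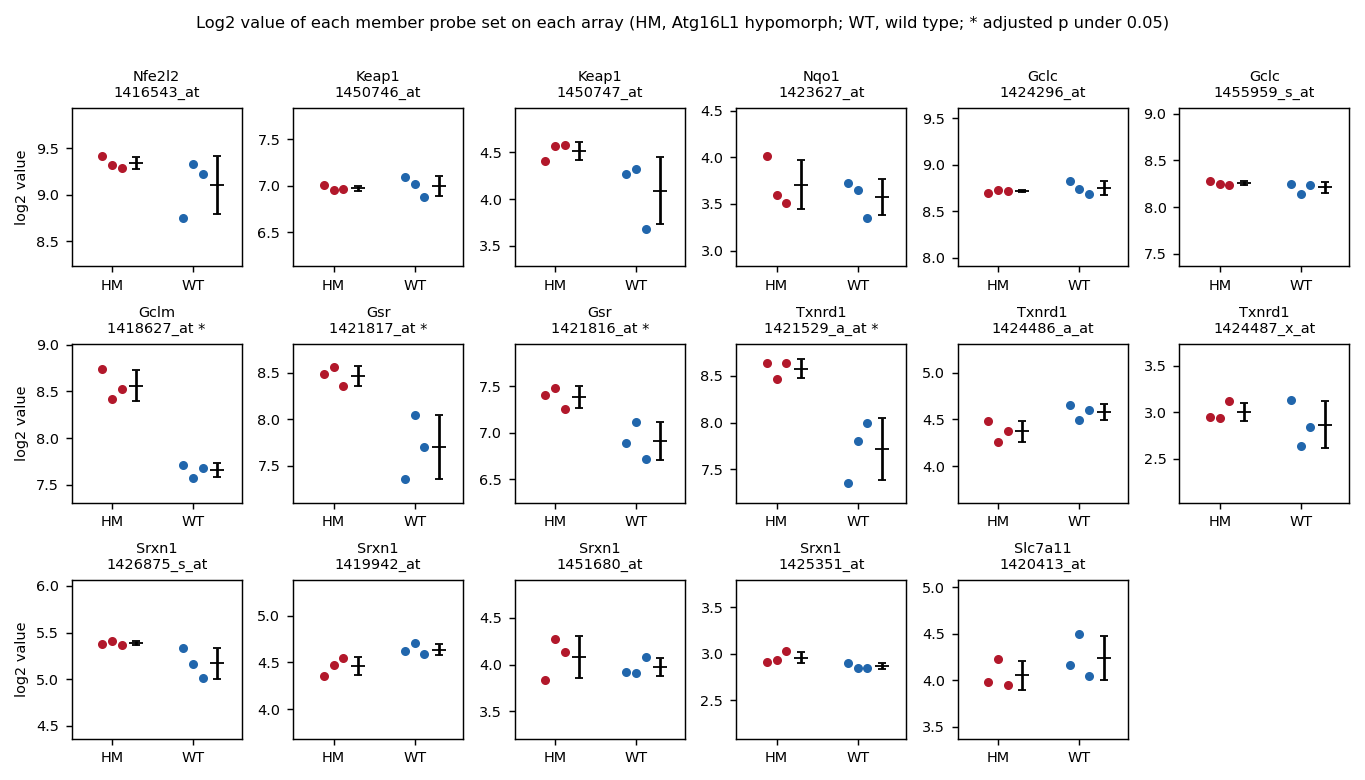
Log2 value (vertical axes, each spanning the same range) of the 17 member probe sets on the hypomorph (HM, red) and wild-type (WT, blue) arrays, 1 point per array, with the mean and SD beside them. The 4 starred probe sets of Gclm, Gsr and Txnrd1 passed an adjusted p under 0.05, and in each the 3 hypomorph arrays sit above the 3 wild-type arrays.

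Promoter sequence is shown for the members whose start carries an antioxidant response element core within the windows at hand, and whose values are given below. RefSeq windows of the GRCm38.p6 build, from 250 bases before to 50 bases after the annotated start, were found for 8 of the 10 genes, not for Gclc and Gsr, with 10 windows in all because Txnrd1 has 3 starts. The core searched was TGACNNNGC, on both strands, and capitals mark it below. All sequences are printed on the gene's own strand. The core itself lies on that strand in Nfe2l2 and on the opposite strand in Gclm, Txnrd1 and Srxn1, where the capitals are its reverse complement. The first 2 sequences are whole windows of the genes that rose, and the other two are the stretches around the core in genes that did not pass.
Gclm, chr3:122245307-122245606, plus strand: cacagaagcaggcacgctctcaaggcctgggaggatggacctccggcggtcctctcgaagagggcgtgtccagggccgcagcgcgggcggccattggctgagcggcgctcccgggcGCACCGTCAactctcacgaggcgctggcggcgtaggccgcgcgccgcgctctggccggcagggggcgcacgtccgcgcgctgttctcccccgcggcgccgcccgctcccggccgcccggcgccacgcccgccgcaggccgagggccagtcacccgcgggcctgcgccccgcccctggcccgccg
Txnrd1, chr10:82858956-82859255, plus strand: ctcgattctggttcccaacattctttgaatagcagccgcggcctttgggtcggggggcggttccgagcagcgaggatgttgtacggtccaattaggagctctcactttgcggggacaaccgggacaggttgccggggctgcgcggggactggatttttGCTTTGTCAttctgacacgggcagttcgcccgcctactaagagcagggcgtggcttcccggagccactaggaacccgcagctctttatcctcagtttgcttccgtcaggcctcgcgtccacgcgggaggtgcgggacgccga
Nfe2l2, chr2:75704870-75704913, minus strand: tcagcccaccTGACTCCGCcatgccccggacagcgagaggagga
Srxn1, chr2:152105527-152105573, plus strand: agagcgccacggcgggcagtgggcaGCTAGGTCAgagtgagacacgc

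The core lay 134 bases before the start of Gclm, 92 bases before one of the 3 starts of Txnrd1 and 240 bases before the start of Nfe2l2, and in Srxn1 it began at base 29 of the transcript. Prdx1 held it as well, 133 bases before its start, whereas the windows of Keap1, Nqo1 and Slc7a11 and the other 2 of Txnrd1 did not hold these letters. Of all 32851 promoter windows 12.4% hold the core on either strand, against 5 of the 10 member windows. Both genes that rose and genes that did not pass are among those with the core. A match of these letters is a description of the window and not a measured binding site.

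The regulators come first. Nfe2l2 read 9.41, 9.32 and 9.28 on hypomorph arrays, against 8.75, 9.33 and 9.23 on wild-type arrays. The groups overlapped, and the wild-type mean was set by replicate 1, the lowest of the 6 arrays. The log2 change was 0.24 (95% interval -0.12 to 0.60, limma adjusted p = 0.328), and without wild-type replicate 1 it was 0.06 (adjusted p = 0.656). That array was also the lowest of the 6 in the mean of the macrophage markers, at 8.41.

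Keap1, the adaptor that hands NRF2 to a ubiquitin ligase, was measured by a pair of probe sets. The brighter one, 1450746_at, read 7.002, 6.95 and 6.96 on hypomorph arrays, against 7.09, 7.02 and 6.88 on wild-type arrays, with hypomorph values inside the wild-type range. Its log2 change was -0.02 with a 95% interval of -0.22 to 0.17 (limma adjusted p = 0.875), or 0.858-fold to 1.13-fold as a ratio. The dimmer one, 1450747_at, read 4.41, 4.57 and 4.58 on hypomorph arrays, against 4.26, 4.33 and 3.68 on wild-type arrays. These groups did not overlap, although wild-type replicate 3 lay far below the other two, and the change of 0.43 did not pass (limma adjusted p = 0.138). Without that array the change was 0.22 (limma adjusted p = 0.173). With array weights, which are set from all probe sets and not from this one, it was 0.57 and passed (limma adjusted p = 0.0442). The weights thus made the change larger, whereas leaving out wild-type replicate 3 made it smaller.

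Glutathione synthesis depends on cystine import by SLC7A11, the light chain of the cystine-glutamate exchanger. Its gene was dim and read 3.98, 4.23 and 3.95 on hypomorph arrays, against 4.16, 4.50 and 4.05 on wild-type arrays. The ranges overlapped, and the log2 change of -0.18 had a 95% interval of -0.51 to 0.15 (limma adjusted p = 0.415). It was -0.05 without wild-type replicate 2, the highest of the 6 arrays, and -0.27 without wild-type replicate 3. Slc3a2, the heavy chain that SLC7A11 shares with other amino acid transporters, is described with the other pathway genes below.

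The enzyme that joins glutamate and cysteine has a catalytic subunit, encoded by Gclc, and a modifier subunit, encoded by Gclm, which raises its activity. Gclm read 8.74, 8.42 and 8.52 on hypomorph arrays, against 7.71, 7.58 and 7.68 on wild-type arrays. The lowest hypomorph array was well above the highest wild-type array, and the wild-type arrays lay close together. Gclm averaged 8.56 ± 0.16 in the hypomorph and 7.66 ± 0.07 in wild type (SD, n = 3 each), a 1.87-fold increase (log2 change 0.91, SE 0.10, 95% interval 0.66 to 1.15, limma adjusted p = 0.00257). With any 1 array left out the change stayed between 0.82 and 0.98 and passed in all 6 fits (adjusted p 0.00591 to 0.0179). It was 1.10 with the spike-in covariate, where it did not pass (adjusted p = 0.44).

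Gclc did not pass by either of its probe sets. The brighter probe set, 1424296_at, read 8.70, 8.73 and 8.72 on hypomorph arrays, against 8.83, 8.74 and 8.69 on wild-type arrays, a log2 change of -0.04 with a 95% interval of -0.21 to 0.14 (limma adjusted p = 0.777). The other, 1455959_s_at, changed by 0.05 with an interval of -0.12 to 0.22 (adjusted p = 0.697), so both intervals lay below the lower bound for Gclm. Within each array, the Gclm value minus the Gclc value was 0.04, -0.30 and -0.20 in the hypomorph, against -1.12, -1.16 and -1.01 in wild type. These differences did not overlap and were 0.94 apart (exact permutation p = 0.1, two-sided, the smallest possible, and 0.1 adjusted over the 4 such pairs compared). The other pairs were probe sets of Txnrd1, of Gsr and of Keap1, each with the same exact permutation p. All pairs reuse the values given for the members, so they are not separate support.

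Gsr encodes glutathione reductase, which uses NADPH to return oxidized glutathione to its reduced form. Its brighter probe set, 1421817_at, read 8.48, 8.56 and 8.35 on hypomorph arrays, against 7.36, 8.05 and 7.70 on wild-type arrays. The second, 1421816_at, read 7.41, 7.48 and 7.25 on hypomorph arrays, against 6.89, 7.12 and 6.72 on wild-type arrays. In both the groups did not overlap, and wild-type replicate 2 was the closest to the hypomorph.

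The brighter Gsr probe set rose 1.70-fold (log2 change 0.76, SE 0.17, limma adjusted p = 0.025) and the second 1.39-fold (0.47, SE 0.12, limma adjusted p = 0.0397). These calls were less secure than that of Gclm when arrays were left out. The brighter probe set passed in 2 of 6 such fits, missing when wild-type replicate 3 or 1 of the hypomorph arrays was omitted (adjusted p 0.063 to 0.0952), and the second passed in 1, the fit without wild-type replicate 2. The changes themselves stayed between 0.59 and 0.94 for the brighter probe set and between 0.38 and 0.58 for the second. With the spike-in covariate they were 0.32 and 0.81, neither passing (adjusted p = 0.889 and 0.57).

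Txnrd1 encodes the cytosolic thioredoxin reductase, a selenoprotein. Its bright probe set, 1421529_a_at, read 8.64, 8.46 and 8.63 on hypomorph arrays, against 7.35, 7.81 and 7.99 on wild-type arrays. All hypomorph arrays were above all wild-type arrays, and wild-type replicate 1 was the lowest. The probe set averaged 8.58 ± 0.10 in the hypomorph and 7.71 ± 0.33 in wild type (SD, n = 3 each), a 1.82-fold increase (log2 change 0.86, SE 0.16, 95% interval 0.48 to 1.25, limma adjusted p = 0.015). It did not pass without hypomorph replicate 1 (adjusted p = 0.0598) or 3 (adjusted p = 0.0645). Its change was 0.68 without wild-type replicate 1 and 1.002 without wild-type replicate 3, passing in both, and with the spike-in covariate the change was -0.07 (adjusted p = 0.975).

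The other 2 Txnrd1 probe sets did not show the increase. 1424486_a_at read 4.48, 4.26 and 4.38 on hypomorph arrays, against 4.66, 4.49 and 4.60 on wild-type arrays, all hypomorph values lying below all wild-type values, with a log2 change of -0.21 (95% interval -0.43 to 0.00, limma adjusted p = 0.16). 1424487_x_at changed by 0.14 between 3.003 ± 0.10 in the hypomorph and 2.87 ± 0.25 in wild type (SD, n = 3 each; limma adjusted p = 0.528), and by 0.02 without wild-type replicate 2 against 0.27 without wild-type replicate 1. It was 1 of the 2 member probe sets under the lower quartile of probe set means, the other being 1425351_at of Srxn1. Within arrays the bright probe set exceeded 1424486_a_at by 4.20 ± 0.05 in the hypomorph and 3.13 ± 0.39 in wild type (exact permutation p = 0.1, the smallest possible). With the mean of the 3 probe sets as the gene's value, Txnrd1 changed by 0.26 and did not pass (limma adjusted p = 0.0639).

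**Figure D2:**
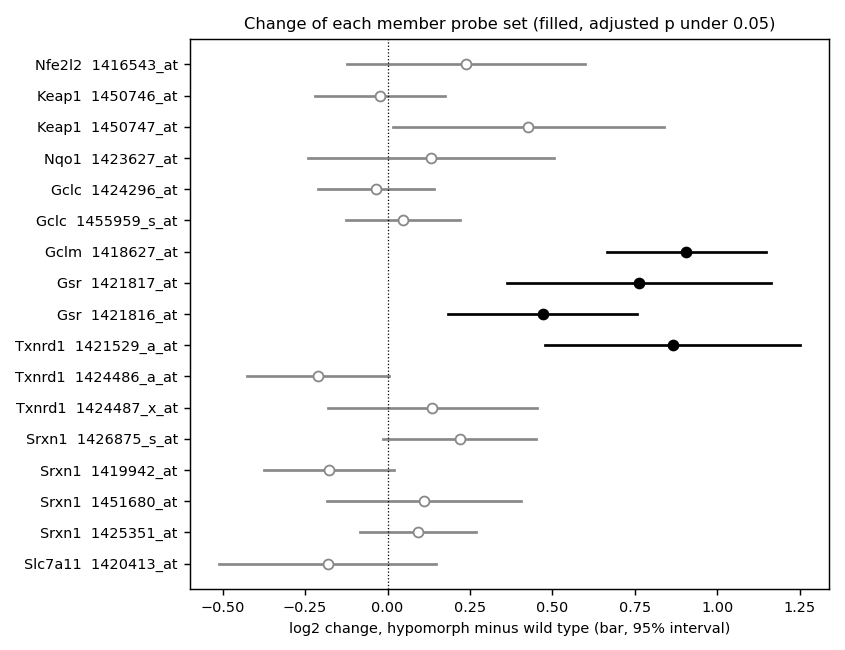
Log2 change, hypomorph minus wild type, of each member probe set (points) with its 95% interval from limma (bars), filled where the adjusted p was under 0.05. The 4 filled points lie between 0.47 and 0.91, and the probe sets of Gclc, at -0.04 and 0.05, have intervals that lie below that of Gclm.

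Srxn1 encodes sulfiredoxin, which repairs overoxidized peroxiredoxins. None of its 4 probe sets passed. The brightest, 1426875_s_at, read 5.38, 5.42 and 5.37 on hypomorph arrays, against 5.34, 5.16 and 5.01 on wild-type arrays. The groups were separated by a narrow gap between the lowest hypomorph array and wild-type replicate 1, and the log2 change was 0.22 (95% interval -0.01 to 0.45, limma adjusted p = 0.173). It was 0.14 without wild-type replicate 3 and 0.30 without wild-type replicate 1, not passing in either fit (limma adjusted p = 0.35 and 0.055). The other probe sets changed by -0.18 (1419942_at), 0.11 (1451680_at) and 0.09 (1425351_at), with adjusted p-values of 0.191, 0.58 and 0.434 by limma. That of 1451680_at lay between 0.02 and 0.23 with 1 hypomorph array left out, lowest without replicate 2 and highest without replicate 1, and that of 1425351_at was 0.06 without hypomorph replicate 3. The probe sets of Srxn1 therefore had changes of both signs, and all 4 were below the median of probe set means.

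Nqo1 encodes a quinone reductase that is widely used as a readout of NRF2 activity. It was dim, reading 4.01, 3.60 and 3.51 on hypomorph arrays, against 3.72, 3.65 and 3.35 on wild-type arrays. The ranges overlapped, with hypomorph replicate 1 the highest of the 6. The log2 change was 0.13 with a 95% interval of -0.24 to 0.50 (limma adjusted p = 0.606), and it was carried by single arrays, at -0.02 without hypomorph replicate 1 and 0.23 without hypomorph replicate 3. Leaving out wild-type replicate 3 gave 0.02, and leaving out wild-type replicate 1 gave 0.20.

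Over the 17 probe sets, 9 had groups that did not overlap, 7 of them higher in the hypomorph and 2 lower, where 39.7% of all probe sets were separated, 18.6% higher and 21.1% lower. The members also varied within wild type. Replicate 1 was the lowest wild-type array for Nfe2l2, the brighter Gsr probe set and the bright Txnrd1 probe set, at -0.35, -0.35 and -0.37 relative to the wild-type mean, and for the macrophage markers, at -0.29. Gclm was 0.05 above the wild-type mean on that array, and the brighter Keap1 probe set 0.10 above.

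**Figure D3:**
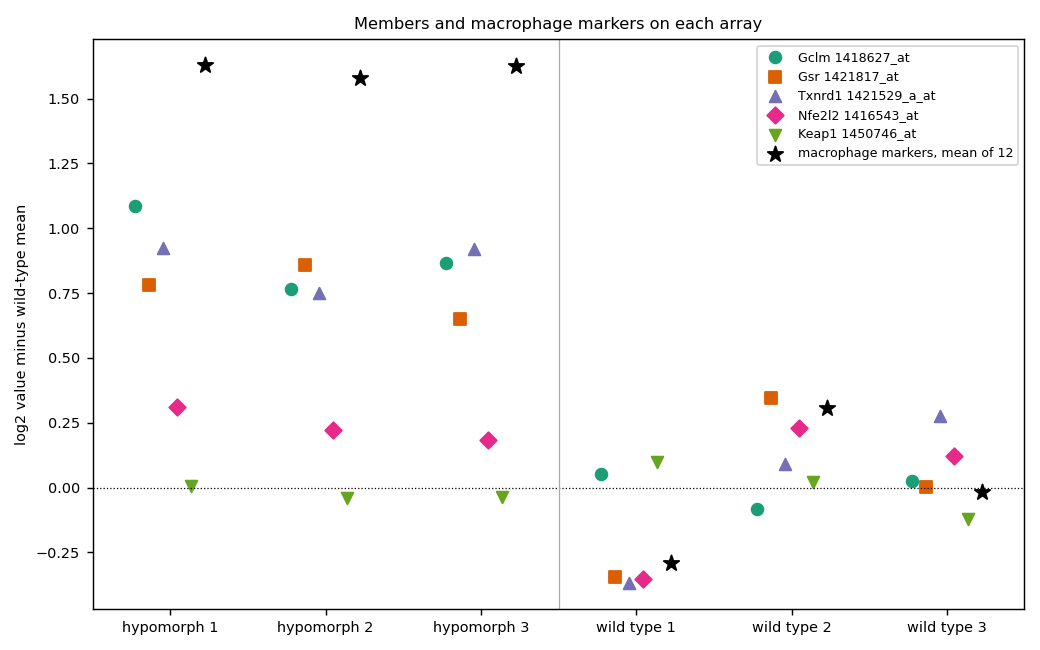
Log2 value minus the wild-type mean (vertical axis) on each array for 5 member probe sets and for the mean of 12 macrophage markers (stars). Gclm, Gsr and Txnrd1 stand 0.65 to 1.09 above the wild-type mean on hypomorph arrays, the macrophage markers 1.58 to 1.63 above it, and wild-type replicate 1 is low for Gsr, Txnrd1, Nfe2l2 and the markers.

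The single-gene probe sets most like Nfe2l2 over the 6 arrays were those of Snw1, Cxxc5 and Spin1, each with a Pearson r of 0.99 (0.994, 0.993 and 0.993). The 6 points share the low wild-type replicate 1. Snw1 read 8.80, 8.77 and 8.74 on hypomorph arrays, against 8.58, 8.76 and 8.74 on wild-type arrays. None of these 3 genes passed the threshold by limma (adjusted p 0.334 to 0.555).

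Genes around the members were read from 6 lists of NRF2-linked genes, 73 in all, and 62 of these could be read by the brightest of the probe sets that name no other gene. Of these 22 rose and 2 fell, 35.5% and 3.23%, where 18.0% of all genes passed by their brightest probe set, 9.63% higher and 8.32% lower. Their median log2 change was 0.22, beside -0.05 over all genes. The lists were written with earlier results of these data known.

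Among 13 genes that control NRF2 or compete with it, 2 rose and 2 fell, 30.8% called beside 18.0% of all genes. Sqstm1, which encodes p62, read 9.23, 9.14 and 9.16 on hypomorph arrays, against 8.25, 8.58 and 8.64 on wild-type arrays, a separation with wild-type replicate 1 lowest (1.61-fold, limma adjusted p = 0.01). The small MAF gene Maff rose 1.99-fold (limma adjusted p = 0.0126), but did not pass without hypomorph replicate 1 or 3 (adjusted p = 0.0529 and 0.0515). Bach2, a repressor of the BACH family that competes for MAF partners and is abundant in lymphocytes, read 6.57, 7.14 and 6.84 on hypomorph arrays, against 7.92, 7.73 and 7.89 on wild-type arrays. It fell by 0.997 on the log2 scale in the hypomorph (limma adjusted p = 0.00652), where 3 of 5 measured B cell markers were also lower and none higher, with a mean over the 5 of 7.83 to 8.25 on hypomorph arrays and 8.32 to 8.75 on wild-type arrays. The part of B cells in that value was not tested.

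Nfe2l3, a relative of NRF2, was dim and fell by 0.41 on the log2 scale by its brightest probe set (limma adjusted p = 0.0223), a call that no fit without 1 of the hypomorph arrays made (adjusted p up to 0.0936). By the mean of its probe sets it changed by -0.02 (limma adjusted p = 0.865). Bach1, the haem-regulated repressor of NRF2 targets, did not pass, at 9.26 ± 0.09 in the hypomorph and 9.03 ± 0.25 in wild type (SD, n = 3 each; limma adjusted p = 0.279).

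Of 12 genes for glutathione synthesis and use, 3 rose and none fell with limma (4 and 1 at an unadjusted p under 0.05). For comparison, 18.0% of all genes passed by their brightest probe set, 9.63% higher and 8.32% lower. Whether the list differs from that share was not tested. Slc3a2 read 10.09, 9.92 and 9.93 on hypomorph arrays, against 9.01, 9.20 and 9.32 on wild-type arrays, and was 1.75-fold higher in the hypomorph (limma adjusted p = 0.00426). Gss, whose enzyme completes glutathione, rose 1.36-fold (adjusted p = 0.0127), and Glrx, a glutaredoxin that uses glutathione to reduce proteins, 1.32-fold (adjusted p = 0.0244). Glrx did not pass when wild-type replicate 3 or 1 of the hypomorph arrays was omitted (limma adjusted p 0.0603 to 0.101), nor Gss without hypomorph replicate 1 or 3 (adjusted p = 0.0542 and 0.0655).

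Of 10 thioredoxin, peroxiredoxin and sestrin genes, 2 rose and none fell with limma (5 and 0 at an unadjusted p under 0.05). That was 20.0% called, near the 18.0% of all genes, of which 9.63% were higher. Txn1, the substrate of TXNRD1, read 11.97, 12.05 and 11.99 on hypomorph arrays, against 11.56, 11.48 and 11.52 on wild-type arrays. The arrays of each group lay close together, and the 1.40-fold increase (limma adjusted p = 0.00679) passed with any 1 array left out, although by the mean of its probe sets Txn1 changed by 0.08 and did not pass (adjusted p = 0.702). Txnrd3, a further thioredoxin reductase, rose 1.37-fold (limma adjusted p = 0.0294), but missed the threshold when 1 hypomorph array, whichever, was omitted (adjusted p 0.0918 to 0.103).

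NADPH feeds both reductases, and of 6 genes for its supply 2 rose and none fell with limma (2 and 1 at an unadjusted p under 0.05). This share was 33.3%, beside 18.0% of all genes. Idh1, a cytosolic NADPH-producing dehydrogenase, read 10.06, 9.98 and 9.96 on hypomorph arrays, against 8.26, 8.75 and 8.67 on wild-type arrays, 2.71-fold higher in the hypomorph (limma adjusted p = 0.0015). Pgd, of the pentose phosphate pathway, rose 1.26-fold (limma adjusted p = 0.0226), but not when wild-type replicate 3 or 1 of the hypomorph arrays was omitted (adjusted p 0.0559 to 0.103). The change of Idh1 lay between 1.29 and 1.53 with any 1 array left out and passed in each of these fits.

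Haem and iron genes had the highest median change of the 6 lists, 1.24. Of 7 measured 6 rose and none fell with limma (6 and 0 at an unadjusted p under 0.05), 85.7% called beside 18.0% of all genes. The biliverdin reductase genes Blvrb and Blvra rose 2.53-fold (limma adjusted p = 0.000959) and 2.26-fold (adjusted p = 0.00104), and the haem transporter gene Slc48a1 2.37-fold (adjusted p = 0.00176). Hmox1, the haem oxygenase gene and the largest change of this list, named after its values were seen, read 11.48, 11.01 and 11.41 on hypomorph arrays, against 8.16, 9.16 and 9.22 on wild-type arrays. It was 5.46-fold higher in the hypomorph (limma adjusted p = 0.00299). Red pulp macrophages are known for recycling haem iron with this set of genes. Their markers had a mean of 10.28 to 10.33 on hypomorph arrays and 8.41 to 9.01 on wild-type arrays. The part of macrophages in the haem and iron values was not tested.

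Of 14 detoxification and other NRF2-linked enzymes, 7 rose and none fell with limma (8 and 0 at an unadjusted p under 0.05). This share was 50.0%, beside 18.0% of all genes. Akr1a1, an aldehyde reductase gene, read 12.78, 12.82 and 12.85 on hypomorph arrays, against 12.24, 12.33 and 12.34 on wild-type arrays, and was 1.43-fold higher in the hypomorph (limma adjusted p = 0.0058). The carbonyl reductase genes Cbr3 and Cbr1 rose 1.42-fold (limma adjusted p = 0.0149) and 1.41-fold (limma adjusted p = 0.0159). Cbr3 did not pass without hypomorph replicate 1 or 3 (limma adjusted p = 0.0549 and 0.0683), and Cbr1 not without any 1 hypomorph array (limma adjusted p 0.052 to 0.0733).

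**Figure D4:**
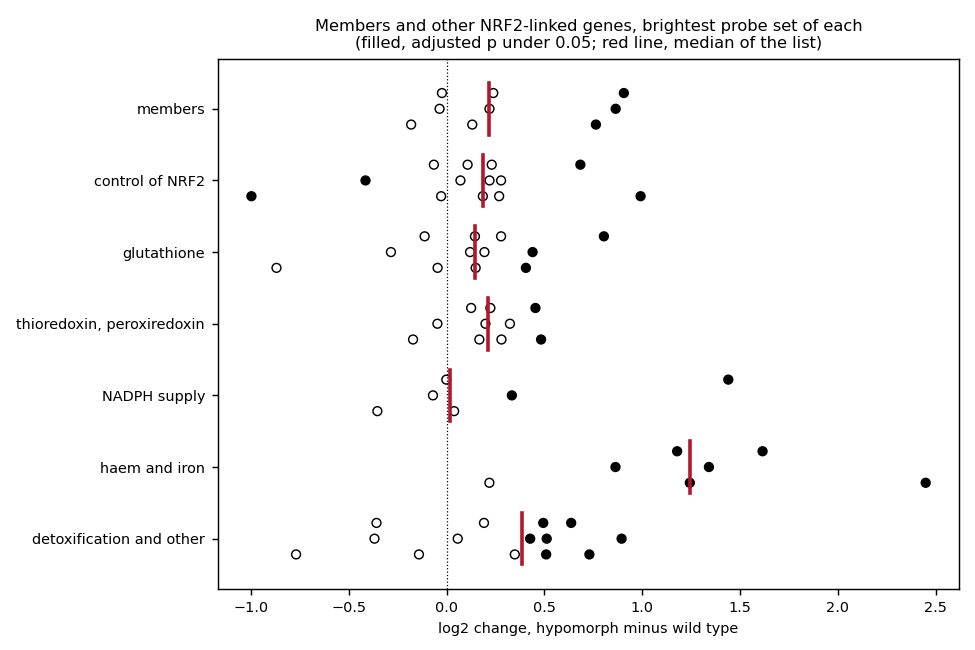
Log2 change, hypomorph minus wild type, of the 9 measured members and of 62 other NRF2-linked genes in 6 lists, each by its brightest probe set (points, filled where the limma adjusted p was under 0.05), with the median of each list as a red line. The haem and iron list has the highest median, 1.24, and the members' median is 0.22.

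**Figure D5:**
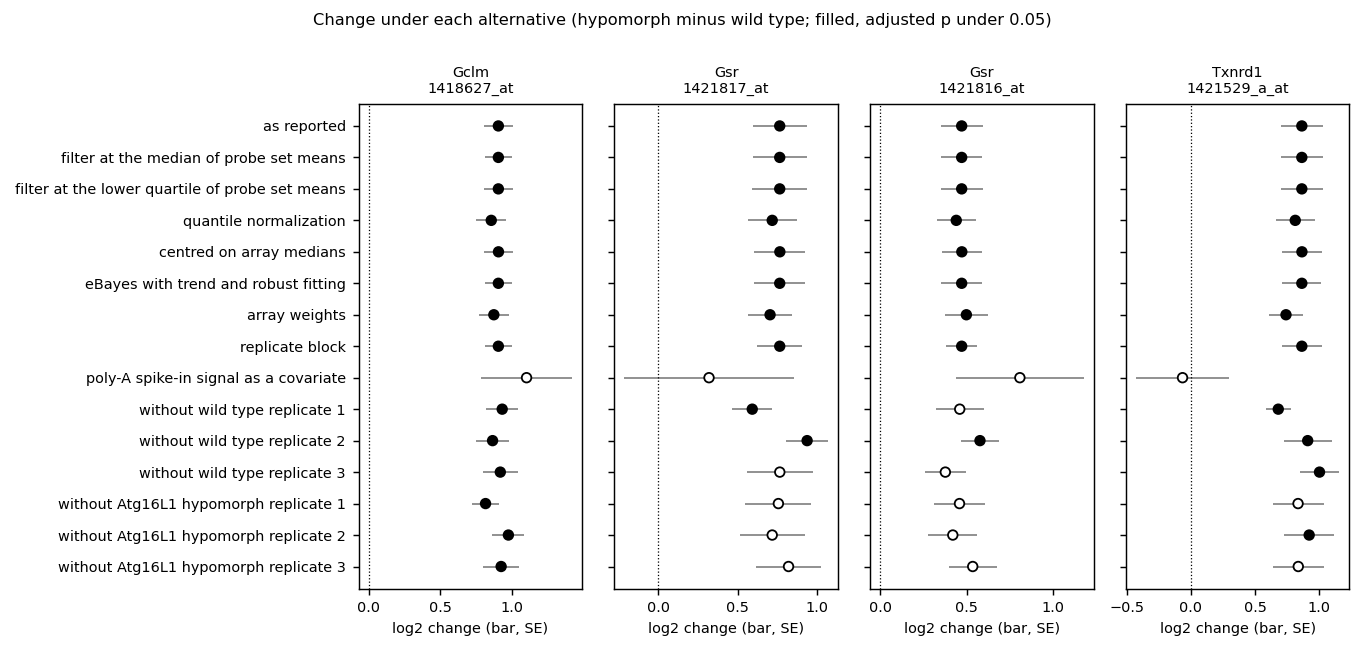
Log2 change, hypomorph minus wild type (horizontal axes, with SE bars), of the 4 member probe sets that passed, as reported and under alternatives (rows). Points are filled where the limma adjusted p was under 0.05. The brightest or mean probe set per gene and the 1.5-fold minimum are not shown. In the rows shown, Gclm stays filled in all but the spike-in covariate fit. Gsr and Txnrd1 also lose the call when some arrays are left out, and Txnrd1 falls to -0.07 with the spike-in covariate.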

How the data were processed

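The series table holds 1 log2 value per probe set and array, deposited by the authors and made with Affymetrix Power Tools, per the submitters' processing notes. Not given in the sources used here: version, background correction and summarization. The log2 scale and a normalization between arrays were inferred from the values (1.96 to 14.33, array medians 5.65 to 5.71), so fold changes depend on that inference. Arrays have no read depth, and no filter on dim probe sets was used.

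Genotypes were tested, two-sided, by lmFit and eBayes of limma 3.58.1 (R 4.3.3) on all 22625 probe sets that are not Affymetrix controls and have values, with Benjamini-Hochberg adjustment over all of them. Called means an adjusted p under 0.05. Tables were made with Python 3.11.15 and pandas 2.3.3, exact permutation tests with scipy 1.17.1 and plots with matplotlib 3.10.9. The fit was tested on simulated data.

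All members were named with every probe set, Atg16l1, the up to 3 genes of smallest p that passed in each direction of each list, Sqstm1, Bach1 and the 3 probe sets most like Nfe2l2. Other genes with values are markers, or Hmox1. Members and lists were chosen with earlier results of these data known. Alternatives were 2 filters on level, the brightest probe set or the mean per gene, quantile normalization, median centring, array weights, eBayes with trend and robust options, a replicate block, a covariate for poly-A spike-in signal, a 1.5-fold minimum, and omitting each array in turn.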

Additional observations from a re-analysis of the deposited data

Results flagged for a closer look

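A signal outside the members' own probe sets came from the 5 probe sets that the platform assigns to Prdx1 together with Gm21399, and that cannot be given to either gene. Prdx1 encodes a peroxiredoxin that thioredoxin reduces. Probe set 1416000_a_at read 11.75, 11.72 and 11.75 on hypomorph arrays, against 11.03, 11.09 and 11.12 on wild-type arrays, a log2 change of 0.66. The changes of 1433866_x_at, 1434731_x_at, 1436691_x_at and 1437014_x_at were 0.80, 0.64, 0.58 and 0.64. In all 5 the groups did not overlap, and the limma adjusted p-values lay between 0.00215 and 0.00691. Of all probe sets, 39.7% did not overlap, 18.6% being higher in the hypomorph, and 17.5% passed, 9.76% being higher. The 5 share a target, so they are not independent of each other.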

How the results depend on the processing

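Of the member probe sets, 4 passed as reported and 1 to 4 with 1 array left out, 2 genes passed with probe sets averaged per gene, and 0 with the spike-in covariate with limma (4 at an unadjusted p under 0.05). These last 4, with log2 changes in that fit, were Gclm (1.10), Srxn1 1426875_s_at (0.72), Nqo1 (1.03) and Keap1 1450747_at (1.30). Of them only Gclm had passed as reported. Of the other NRF2-linked genes, 24 passed as reported, 12 to 26 with 1 array left out, 14 at a minimum change of 1.5-fold and 0 with the spike-in covariate (6 at an unadjusted p under 0.05). That covariate followed the genotype and cannot be told apart from it in this fit. Atg16l1 changed by -0.91 with the covariate and did not pass (limma adjusted p = 0.483). With it the sign also turned for Nfe2l2 (-0.38), Txnrd1 1421529_a_at (-0.0656), Gclc 1424296_at (0.17), Keap1 1450746_at (0.36), Srxn1 1451680_at (-0.40) and Bach1 (-0.38). The sign of Keap1 1450746_at, near 0, turned with array weights (0.0116). With probe sets averaged per gene, Keap1 changed by 0.20 and Gclc by 0.0054, where their brighter probe sets alone changed by -0.02 and -0.04. With 1 array left out, Keap1 1450746_at ranged from -0.0839 to 0.0254 and Gclc 1424296_at from -0.0669 to 0.0033, both positive without wild-type replicate 1, and Nqo1 from -0.0195, without hypomorph replicate 1, to 0.229; the cause was not tested. Over all probe sets, 3956 passed as reported, 1786 at a minimum of 1.5-fold, and 1794, 1548 and 1422 without hypomorph replicate 1, 2 or 3. Deviations from the group means correlated between same-numbered arrays at r = 0.178, 0.0145 and 0.106, and between differently numbered ones at -0.173 to 0.137. The labels do not say whether same-numbered arrays were paired, and these values cannot settle it. With the replicate number as a block 4 member probe sets and 17 linked genes passed, and 2315 of all probe sets. The block leaves every log2 change of this balanced design as it was, so only errors and p-values can move; for Atg16l1 (-1.04) the limma adjusted p became 0.0126. Signal over background cannot be judged without detection calls, and 9 of the 17 member probe sets were below the median of probe set means.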
